A study of Mus musculus with 110 samples.

Results

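Junctions of V(D)J recombination at the mouse immunoglobulin heavy chain locus (Igh) were compared between a v-Abl transformed pro-B cell line whose CTCF protein carries a degron, treated with auxin, and pro-B cells taken from mouse bone marrow. The members were the full junction libraries titled JH4_CTCFdegron_IAA (12 libraries, an a and a b library for each of 6 replicates) and JH4_BMProB (6 libraries, 6 replicates). These are 18 of the 110 libraries of the series, of which 98 are full junction libraries. Each library came from genomic DNA by linear amplification from a bait at the JH4 segment (LAM-HTGTS V(D)J-seq), so each read joins JH4 to the prey sequence it had recombined with. The degron line is RAG2 deficient, carries an Emu-Bcl2 transgene and is labelled CTCFdegron. It received RAG2 by nucleofection, 500 µM indole-3-acetic acid (IAA, an auxin) for 6 h, and then 3 µM STI-571, an Abl kinase inhibitor that arrests such lines, with IAA for 4 days. In 3 of the 12 degron libraries the treatment label does not name IAA, and the title was followed. The bone marrow cells are wild-type 129SV pro-B cells, sorted as B220+CD43+IgM- where the labels name a sort (all but replicate 1), and the general protocol field of replicates 4 to 6 lists STI-571. The commonest bait sequence at the start of the reads also differed between bone marrow, the a libraries and the b libraries. The 2 groups therefore differ in transformation, genotype, culture, RAG source, bait sequence and treatment as well as in CTCF. None of these can be told apart in this comparison. The same line without IAA (6 replicates) and the parental line without IAA (4 replicates) are given beside the main values as background, with no test. The files hold junctions and no expression values, so neither the loss of CTCF nor the cell type could be checked against its own level or markers.

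In developing B cells the RAG endonuclease first joins a D segment to a JH segment and then a VH segment to the DJ join. RAG bound at the JH end cuts at recombination signals, each made of a heptamer, a spacer and a nonamer, and cohesin draws the locus past it so that distant VH segments can be reached. CTCF is the DNA-binding protein at which cohesin stops. CTCF sites in the region between the D and VH segments shield the VH segments, and many D-proximal VH segments have a CTCF site just beside their signal.

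The recombination signals of VH segments that carry the results below are shown here as they stand in mm9 (C57BL/6), 5′ to 3′ on the coding strand (the minus strand of chromosome 12), starting with the first base after the VH segment. They show which leading segments have a CTCF-type motif beside the signal. Capitals mark the heptamer, the nonamer and, where present, the match to a CTCF-type core motif of 11 letters, namely CCA, any 2 bases, AG, any 2 bases and GG. Ighv2-9 has the consensus heptamer and nonamer, taken as the commonest bases after the annotated D segments of mm9. These are reference letters, not letters read in the cells studied. The symbol Ighv14-1 is uncertain, because its place among its neighbours in the hybrid is that of Ighv14-4 in mm9.
Ighv5-2 (mm9 chr12:114816635-114816714): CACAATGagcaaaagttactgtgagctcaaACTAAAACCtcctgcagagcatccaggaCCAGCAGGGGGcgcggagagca
Ighv5-4 (mm9 chr12:114835577-114835656): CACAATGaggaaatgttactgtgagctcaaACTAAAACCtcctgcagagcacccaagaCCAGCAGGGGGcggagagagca
Ighv2-3 (mm9 chr12:114849315-114849394): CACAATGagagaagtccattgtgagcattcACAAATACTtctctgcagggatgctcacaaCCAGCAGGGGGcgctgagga
Ighv5-6 (mm9 chr12:114863637-114863716): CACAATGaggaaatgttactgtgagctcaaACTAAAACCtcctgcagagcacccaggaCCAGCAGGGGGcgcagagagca
Ighv5-12 (mm9 chr12:114940255-114940334): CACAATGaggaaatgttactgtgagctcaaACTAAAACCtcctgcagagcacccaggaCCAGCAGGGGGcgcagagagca
Ighv2-9 (mm9 chr12:115117227-115117306): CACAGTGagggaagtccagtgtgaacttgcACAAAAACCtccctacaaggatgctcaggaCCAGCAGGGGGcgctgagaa
Ighv14-1 (mm9 chr12:115170084-115170163): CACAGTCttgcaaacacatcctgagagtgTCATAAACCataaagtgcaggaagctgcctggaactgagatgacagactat
Ighv10-1 (mm9 chr12:115717136-115717215): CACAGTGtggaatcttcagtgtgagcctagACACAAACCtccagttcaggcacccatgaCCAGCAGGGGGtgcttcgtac
VH-116240676 (mm9 chr12:115850374-115850453): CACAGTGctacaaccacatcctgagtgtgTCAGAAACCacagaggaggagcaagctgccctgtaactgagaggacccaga
Ighv1-14 (mm9 chr12:115884703-115884782): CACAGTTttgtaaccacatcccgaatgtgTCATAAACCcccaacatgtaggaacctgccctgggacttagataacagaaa

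The 6 bone marrow replicates held 30090 to 89909 junction reads (354425 in all) and the 6 degron replicates 21416 to 35133 (179187 in all). Read names put all degron libraries in a single sequencing run and the bone marrow libraries in 2 others, so run and group cannot be told apart. Distinct junctions, counted by prey position, orientation and alignment ends, were 20.2% to 27.2% of the reads in bone marrow and 50.9% to 59.98% in the degron libraries. The deposited lists mark 82.6% to 87.4% of the reads as duplicate in bone marrow replicates 1 to 3. They mark 0% in bone marrow replicates 4 to 6 and in every degron library. Marked reads were kept in all main values. A share of reads in such a bulk library cannot separate fewer cells with a join from less amplification of it. Nothing in the labels says that replicates came from separate cultures or mice, so p-values measure only the spread between these samples. Degron replicate 1 stood apart from the other 5 in how its VH junctions were spread, and values that it moves most are also given without it.

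Total VH use was similar in the 2 groups, which is why they are compared. Junctions of the VH region (hybrid positions 114829805 to 117639092 of chromosome 12, counted as the deposited files count them) made up a lowest 23.8%, median 28.4% and highest 30.3% of the junctions in the degron line with IAA. In bone marrow the values were 22.3%, 32.2% and 36.7%, and the ranges overlapped. D segments took 69.9% ± 3.0 (SD, n = 6) and 66.0% ± 5.8 (SD, n = 6) of the junctions. Without IAA the degron line had a VH share of 4.07% ± 1.37 (SD, n = 6) and the parental line 4.61% ± 0.918 (SD, n = 4).

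At that similar VH share, the junctions of the degron line lay much nearer to the D segments. The median distance of a VH junction from the D-proximal start of the VH region was 92.7 kb in the lowest degron replicate, 135.3 kb in the median and 168.8 kb in the highest. In bone marrow it was 640.3 kb, 751.0 kb and 885.0 kb. Every degron replicate was therefore below every bone marrow replicate, and the group means of 135.7 kb ± 25.3 and 752.4 kb ± 101.8 (SD, n = 6 each) differed with an exact permutation p of 0.00216. That is the smallest two-sided p that 6 against 6 allows. Over the 32 exact tests made here, the Benjamini-Hochberg value of each measure whose groups did not overlap was 0.00277.

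**Figure D1:**
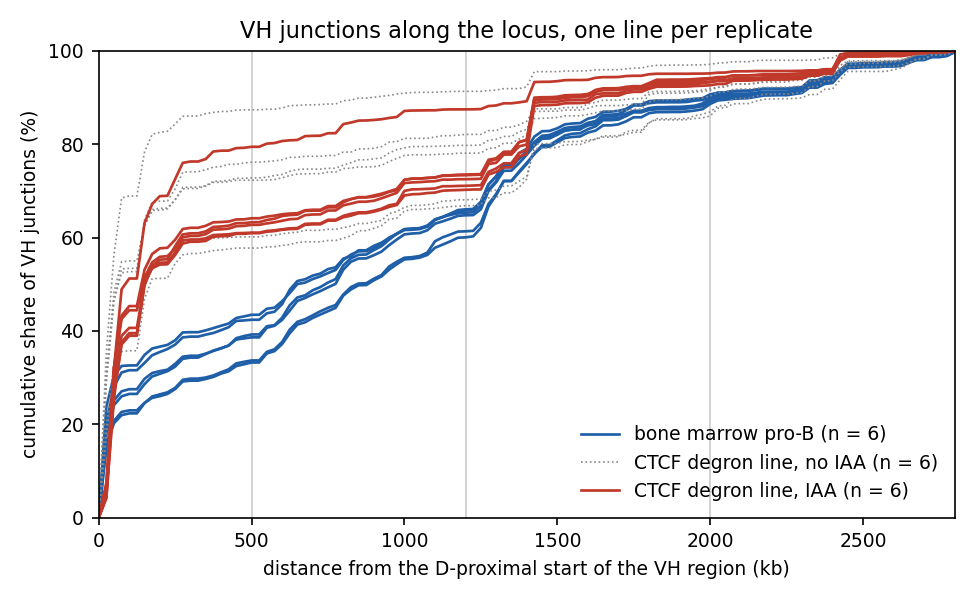
Cumulative share of VH junctions (%) against distance from the D-proximal start of the VH region (kb), with a line for each of 6 replicates of bone marrow (blue), the degron line with IAA (red) and the degron line without IAA (grey, dotted). At 500 kb the bone marrow lines lie between 33.3% and 43.5% and the degron IAA lines between 60.9% and 79.4%, the highest being replicate 1.

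The locus was divided into 4 zones by distance. The zone within 500 kb of the D-proximal start held 60.9% of VH junctions in the lowest degron replicate, 63.0% in the median and 79.4% in the highest. In bone marrow it held 33.3%, 38.9% and 43.5%. The means were 65.3% ± 7.1 and 38.5% ± 4.3 (SD, n = 6 each; p = 0.00216 by exact permutation).

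The 3 zones farther out all held smaller shares in the degron line, and the middle of the locus most of all. Between 500 and 1200 kb the share was 9.42% ± 0.795 (8.01% to 10.2%) against 25.4% ± 2.24 (22.3% to 27.6%) in bone marrow (SD, n = 6 each; p = 0.00216 by exact permutation). Between 1200 and 2000 kb it was 19.1% ± 5.62 against 25.8% ± 1.89 (SD, n = 6 each; p = 0.00216 by exact permutation). Beyond 2000 kb it was 6.26% ± 0.874 against 10.4% ± 0.759 (SD, n = 6 each; p = 0.00216 by exact permutation). The groups did not overlap in any zone.

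The size of the difference in the zone 1200 to 2000 kb moved with 1 replicate and with 1 segment. Degron replicate 1 had 7.70% there and the other 5 had 20.4% to 22.4%; without it the difference was -4.43 percentage points in place of -6.70, still with no overlap. Without the leading VH segment of that zone, an alternative chosen after seeing the data, it was -12.8 points. Against the 3 bone marrow replicates of either run alone the difference in the zone 1200 to 2000 kb missed the 0.05 threshold (adjusted p by exact permutation 0.0914 and 0.0733).

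The untreated degron line covered the range of the treated one in this respect. Its zone within 500 kb held 57.8% to 87.4% of VH junctions, with a mean of 71.1% ± 10.9 (SD, n = 6). Its median distance was 96.6 kb ± 63.5 (SD, n = 6). In the untreated parental line 95.8% ± 0.822 (SD, n = 4) of VH junctions lay within 500 kb, and the median distance was 7.80 kb ± 2.44 (SD, n = 4).

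The degron line also used fewer VH segments. The effective number of VH segments is the inverse of the chance that 2 VH junctions drawn at random share a segment. For independent draws that chance is estimated without bias from depth, but its inverse is not. Repeated reads are not independent draws. The effective number was 13.7 ± 1.70 (10.3 to 14.8) in the degron line and 36.5 ± 7.22 (25.95 to 44.3) in bone marrow (SD, n = 6 each, p = 0.00216 by exact permutation). The 5 leading segments of a replicate held 54.0% ± 3.08 of VH segment junctions in the degron line and 27.0% ± 3.95 in bone marrow (SD, n = 6 each). It took 4 to 5 segments to reach 50% of the junctions in degron replicates and 16 to 21 in bone marrow. Without degron replicate 1 the mean effective number was 14.4. In the untreated degron line the effective number was 14.8 ± 4.29 (9.01 to 20.5, SD, n = 6), a range that covers that of the treated line. The size of the difference from bone marrow depends on repeated reads and on Ighv5-2. With identical junctions counted once the numbers were 15.6 and 52.7, and without Ighv5-2 they were 13.3 and 53.4.

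**Figure D2:**
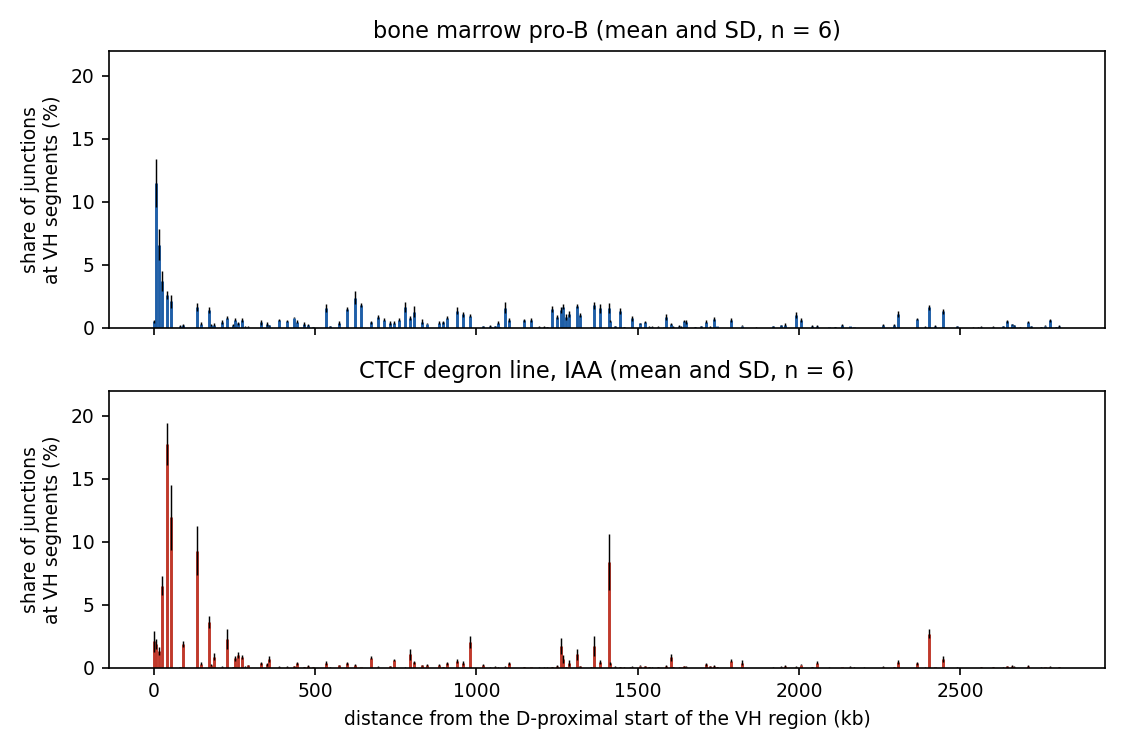
Mean share of each VH segment among junctions at VH segments (%, bars with SD over 6 replicates) against distance from the D-proximal start of the VH region (kb), for bone marrow (top) and the degron line with IAA (bottom). Bone marrow has its tallest bar at Ighv5-2 (11.5%); the degron line has it at Ighv2-3 (17.8%), with a separate tall bar at 1411 kb (8.37%).

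Single segments were then tested with limma on junction tallies, relative to all junctions of a replicate, in 148 VH and 27 D segments defined from the junction peaks. Of 141 segments with at least 10 junctions per replicate on average, 119 (84.4%) passed an adjusted p of 0.05. Of these 23 were higher in the degron line (16.3% of those tested) and 96 lower (68.1%). The average was taken over the replicates of both groups, so a segment could enter through a single group. Bone marrow had more reads (354425 against 179187), so segments high there entered more easily. With a minimum mean of 1 junction, 26 of 175 were higher and 109 lower. In 95 of the 141 segments (67.4%) the replicate shares of the groups did not overlap. The median log2 difference over all segments was -1.58. The split depended on the scale: scaled by the median of ratios, which shifts the log2 differences by a median of 1.15, 40 were higher and 57 lower. Shares of VH junctions below do not depend on that choice.

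At the D-proximal edge neighbouring segments moved in opposite directions. Ighv5-2, also known as VH81X, the functional VH segment nearest to the D segments, lies 6.57 kb into the VH region (hybrid position 114836377; mm9 chr12:114816715-114817201). It held 9.50%, 11.3% and 14.7% of VH junctions in the lowest, median and highest bone marrow replicate, and 1.49%, 1.86% and 2.40% in the degron line. It was thus 6.06-fold lower in the degron line, with no overlap, and its log2 difference was -2.76 ± 0.191 (SE; limma adjusted p = 1.88e-15). In the untreated degron line it held 15.4% ± 5.02 and in the untreated parental line 49.6% ± 3.12 (SD, n = 6 and n = 4). The next segment, VH-114846142 (closest to Ighv2-2, 99.6% identity), went the same way, from 6.60% ± 1.21 in bone marrow to 1.35% ± 0.324 in the degron line (SD, n = 6 each; limma adjusted p = 3.99e-13).

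Segments just beyond were the leading ones of the degron line. Ighv2-3, at 39.3 kb (hybrid position 114869105; mm9 chr12:114849395-114849828), held 16.1%, 17.5% and 20.2% of VH junctions in the lowest, median and highest degron replicate. In bone marrow it held 2.16%, 2.74% and 2.88%. It was 6.82-fold higher with no overlap (log2 difference 2.59 ± 0.150, SE; limma adjusted p = 1.06e-17).

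Ighv5-6, at 53.6 kb (mm9 chr12:114863717-114864167), held 10.1%, 10.9% and 17.0% in the degron line against 1.72%, 1.93% and 3.06% in bone marrow, 5.69-fold by the means. Ighv5-12, at 131.7 kb (mm9 chr12:114940335-114940789), held 6.60%, 9.66% and 11.5% against 1.20%, 1.72% and 1.96%, 5.61-fold. Ighv5-4, which lies between Ighv5-2 and Ighv2-3 at 25.6 kb (mm9 chr12:114835657-114836116), rose less, from 3.70% ± 0.795 to 6.53% ± 0.743 (SD, n = 6 each; limma adjusted p = 0.000129). In each of these the replicate ranges of the groups were apart. The highest value of Ighv5-6 was that of degron replicate 1, without which its log2 difference was 2.23 in place of 2.34.

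The untreated degron line did not have these segments at their bone marrow level either. There Ighv2-3 held 10.2%, Ighv5-6 7.20%, Ighv5-12 9.84% and Ighv5-4 6.60% of VH junctions (means of 6 replicates). Of the leading degron segments, Ighv5-12 and Ighv5-4 were thus about as frequent in the untreated libraries as in those with IAA. Ighv2-3 and Ighv5-6 were lower in the untreated libraries. These differences were not tested.

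The most D-proximal segment used in every replicate, VH-114830805 (closest to Ighv5-9, 91.1% identity), lies 1 kb into the region and went against Ighv5-2 beside it. Its share was 2.12% ± 0.822 in the degron line and 0.511% ± 0.0963 in bone marrow (SD, n = 6 each, limma adjusted p = 1.08e-07). Without IAA its share was 2.34% ± 0.748 in the degron line and 3.27% ± 0.406 in the parental line (SD, n = 6 and n = 4). The largest increase of a VH segment was at VH-114919648 (closest to Ighv5-9, 97.2% identity, at 89.8 kb). It held 1.91% ± 0.236 against 0.208% ± 0.101 (SD, n = 6 each), a log2 difference of 3.25 ± 0.378 (SE; limma adjusted p = 1.04e-09). In the untreated degron line VH-114919648 held 0.168%, which is near its level in bone marrow.

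Over all 121 VH segments tested 85 (70.2%) were lower and 19 (15.7%) higher, with a median log2 difference of -1.68. Across the 30 segments tested within 500 kb the changes were mixed: 12 were higher, 11 lower and 7 did not pass, with a median log2 difference of -0.06 (17 higher and 8 lower with the median of ratios). Of the 31 tested between 500 and 1200 kb, 24 were lower and 2 higher, with a median of -1.84. Of the 35 between 1200 and 2000 kb, 27 were lower and 3 higher, with a median of -1.77. Of the 25 beyond 2000 kb, 23 were lower and 2 higher, with a median of -1.88. With the median of ratios the 3 outer zones had 15, 18 and 10 lower and 5, 5 and 2 higher.

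**Figure D3:**
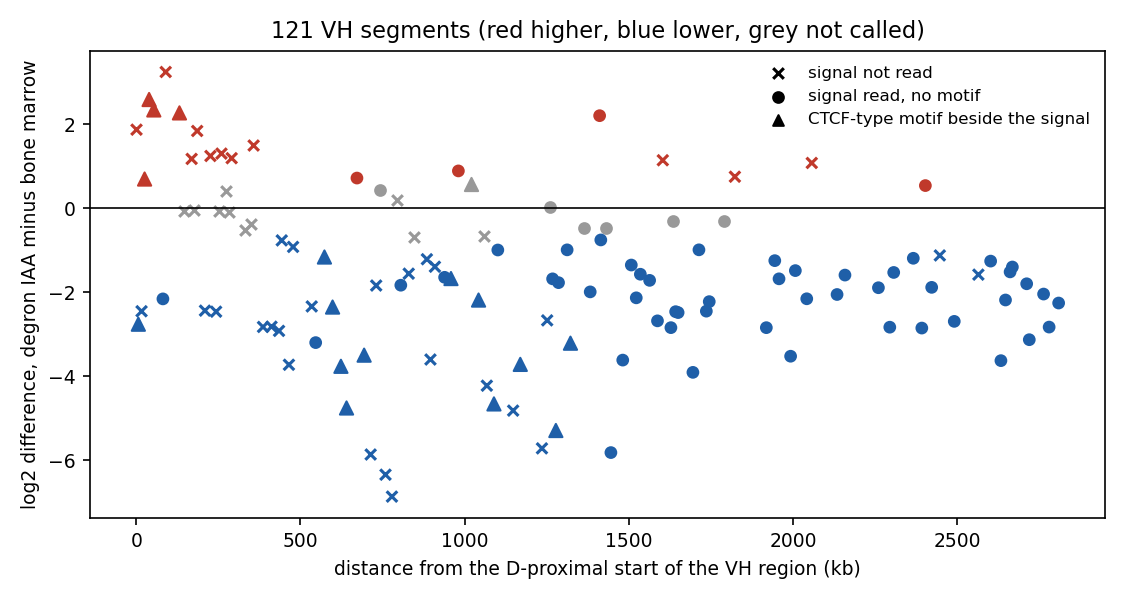
Log2 difference (degron IAA minus bone marrow, limma, relative to all junctions) of 121 VH segments against distance from the D-proximal start of the VH region (kb); red and blue points passed as higher and lower, grey points did not, and the shape gives whether a CTCF-type motif lies beside the signal in mm9. Higher segments gather within 500 kb (12 of 19), and VH-116240676 stands alone among lower ones at 1411 kb (2.21).

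A single distal segment rose strongly. VH-116240676 lies 1411 kb into the region, between Ighv1-9 and Ighv1-12; no V segment is annotated at its place in the annotation used, and the closest annotated one is Ighv1-76 with 83.4% identity. It held 4.01%, 8.88% and 9.96% of VH junctions in the lowest, median and highest degron replicate and 1.16%, 1.47% and 2.19% in bone marrow, a 5.32-fold difference of the means with no overlap (limma adjusted p = 3.17e-12). Degron replicate 1 had the lowest value, and the other 5 had at least 8.56%. Without IAA the degron line had 4.24% ± 1.84 there (SD, n = 6). Ighv14-1 at 980.9 kb was chosen after its values were seen: it held 2.07% ± 0.480 against 0.966% ± 0.113 (SD, n = 6 each, limma adjusted p = 0.000721). It was named by sequence alone (98.2% identity). Its place between Ighv7-3 and Ighv3-3 is that of Ighv14-4 in mm9. The segment named Ighv14-4, at 672.1 kb, lies between Ighv7-1 and Ighv4-1, the mm9 place of Ighv14-1. Both symbols are therefore uncertain.

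The largest decreases against bone marrow lay 713.8 to 1445 kb into the region, at segments with very few junctions in the degron line. VH-115608445 (closest to Ighv3-1) had 7 junctions in the degron line, of 48805 at VH segments, and 1975 in bone marrow, of 112011. VH-115588829 (closest to Ighv4-1) had 2 and 777, and VH-115543647 (closest to Ighv3-1) 5 and 795. Ighv1-14 had 13 and 1499, VH-116065104 (closest to Ighv6-3) 14 and 1725, and Ighv10-1 15 and 1062. All 6 had no overlap between groups, which was a condition of this list. In the degron line all 6 were below the minimum of 10 junctions per replicate on average, so they entered the test through bone marrow. Their log2 differences were -6.87 to -5.29 with a pseudocount of 0.5 junction and -5.68 to -4.33 with a pseudocount of 2, so their size depends on it. In a degron replicate with IAA a count of 0 allows a share of up to 0.0291% to 0.0477% of VH junctions, counting error only. Shares were low in the untreated degron line too, with 0% at VH-115588829 and 0.0112% to 0.0764% at the others (means of 6 replicates). A count of 0 in an untreated degron replicate allows up to 0.126% to 0.420%.

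Ighv2-9, at 623.3 kb (mm9 chr12:115117307-115117740), was the fifth most used VH in bone marrow, with 1.72%, 2.51% and 3.06%. In the degron line it held 0.141%, 0.178% and 0.329%, which is 12.2-fold lower (log2 difference -3.76 ± 0.313, SE; limma adjusted p = 1.88e-13). Without IAA the degron line had 0.410% ± 0.177 at Ighv2-9 (SD, n = 6). At the far edge VH-117638092 (closest to Ighv1-26, 2808 kb) held 0.0308% ± 0.0232 against 0.155% ± 0.0994 (SD, n = 6 each), and its replicate ranges overlapped (limma adjusted p = 0.00102). Segments were placed on a hybrid sequence that is mm9 itself from 1261 kb onward. There the consensus of the prey reads differed between the groups in 183 of 15413 bases (1.19%), against 3 of 17054 bases (0.0176%) nearer to D, and whether reads of several genes meet at a site there was not tested.

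VH families differed in share in both directions. Ighv5 and Ighv2, which lie mostly in the first 500 kb, held larger shares in the degron line. Ighv5 rose from 28.1% ± 3.02 to 43.8% ± 5.28 of VH segment junctions and Ighv2 from 16.5% ± 1.06 to 22.8% ± 2.57 (SD, n = 6 each; p = 0.00216 for each by exact permutation). Within Ighv5 the 17 segments tested in the first 500 kb were 9 higher and 4 lower, and the 2 beyond it were both lower. Within Ighv2, 3 of 13 were higher and 7 lower in the first 500 kb, and the 3 beyond it were all lower. Without degron replicate 1 the degron mean of the family Ighv5 was 41.7%. Ighv2-3 alone gained more than the family as a whole. Over all 16 Ighv2 segments tested 3 were higher and 10 lower, near the 15.7% and 70.2% of all VH segments tested (6 and 7 with the median of ratios).

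Ighv3, Ighv4, Ighv6, Ighv7, Ighv9 and Ighv10, whose segments lie farther out, held smaller shares in the degron line. Ighv3 fell from 5.04% ± 0.756 to 0.478% ± 0.164, Ighv6 from 3.18% ± 0.480 to 0.283% ± 0.104, Ighv10 from 1.87% ± 0.255 to 0.147% ± 0.0677 and Ighv4 from 1.52% ± 0.227 to 0.0906% ± 0.0379 (SD, n = 6 each; p = 0.00216 for each by exact permutation). Ighv7 fell from 3.04% ± 0.214 to 0.501% ± 0.167 and Ighv9 from 4.07% ± 0.391 to 1.85% ± 0.410 (SD, n = 6 each; p = 0.00216 for each by exact permutation). These low levels were also present without IAA, where Ighv3 held 0.433%, Ighv6 0.332%, Ighv7 0.618% and Ighv4 0.00736% of VH junctions (means of 6 replicates).

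The large distal Ighv1 family fell less, from 25.9% ± 1.89 to 19.4% ± 4.30 (SD, n = 6 each; p = 0.00216 by exact permutation). Of its 49 tested segments 43 were lower and 3 higher, against 70.2% lower and 15.7% higher over all VH segments tested; without VH-116240676, which counts among them by its closest symbol, its share was 12.1% against 24.7%. Without degron replicate 1 the share of the family Ighv1 was 21.1%, and that of the family Ighv9 was 2.004%. The families Ighv8, Ighv11, Ighv15 and Ighv14 did not pass: Ighv8 (3.73% and 4.02%), Ighv11 (1.19% and 1.17%), Ighv15 (1.74% and 1.79%) and Ighv14 (3.93% ± 0.592 and 3.14% ± 0.675, SD, n = 6 each; p = 0.0476 by exact permutation, 0.0564 after adjustment). For Ighv14 the value was 0.0103 without degron replicate 1. Without that replicate the degron means of the family Ighv8, the family Ighv11 and the family Ighv15 were 4.19%, 1.05% and 2.05%, which turned the direction of each, and none passed. The segments of Ighv14 lie among families that fell, and 2 of its 4 were called higher, against 15.7% of all VH segments tested.

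**Figure D4:**
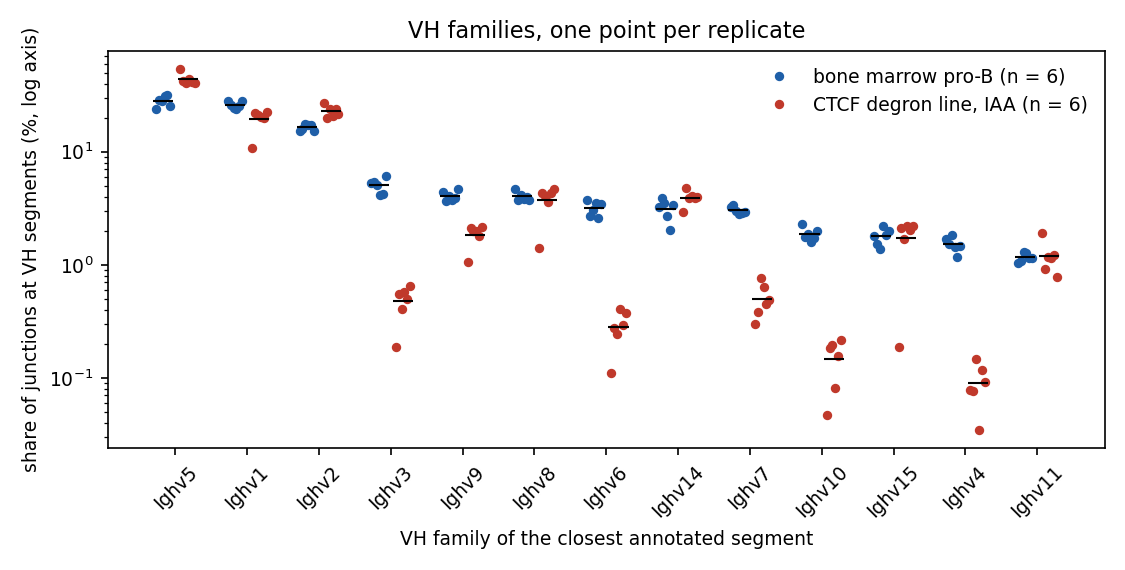
Share of junctions at VH segments (%, log axis) by VH family, with a point per replicate and a bar at the mean of 6, for bone marrow (blue) and the degron line with IAA (red). Ighv5 and Ighv2 lie higher in the degron line; Ighv3, Ighv6, Ighv7, Ighv10 and Ighv4 lie lower with no overlap, for example 4.11% to 6.11% against 0.189% to 0.650% for Ighv3.

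The recombination signal could be read from mm9 for 93 VH segments, those with a symbol of their own or in the part of the hybrid that is mm9. In the 100 bases from the heptamer on, 18 of the 93 (19.4%) held that motif, searched on both strands, against 1.63% of all 100-base windows of mm9 chromosome 12. All 18 matches lay on the strand of the segment, 19 to 25 bases after the nonamer, as in the sequences shown above. All 6 Ighv5 segments read and all 3 of Ighv7 had it, and none of the 63 Ighv1 segments did. A match is a description of letters and not a measured CTCF site.

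Segments with and without the motif are listed by zone because motif, family and distance go together. Within 500 kb only 6 of the 30 tested segments were read, and 5 of the 6 had it. Of those 5, 4 were higher in the degron line and Ighv5-2 was lower. VH-114846142 next to Ighv5-2 was also lower but was not read. Over all 30 tested in that zone 12 were higher and 11 lower, and over all VH segments tested 15.7% were higher. Between 500 and 1200 kb 9 of the 10 tested segments with the motif were lower and none higher, with a median log2 difference of -2.92. The 7 without it were 4 lower and 2 higher, with a median of -0.99. Between 1200 and 2000 kb both tested segments with the motif were lower, and of 29 without it 23 were lower and 1 higher. None of the segments read beyond 2000 kb had it, and 21 of the 22 tested there were lower. Between 500 and 1200 kb the segments with the motif held 10.6% of VH junctions in bone marrow and 1.70% in the degron line. Those without it in that zone held 5.27% and 4.82%. In the untreated degron line the shares in that zone were 1.88% with the motif and 2.42% without it. Within 500 kb the segments with the motif held 21.6% in bone marrow, 47.5% in the degron line with IAA and 49.3% without IAA. Over all VH segments tested 70.2% were lower, with a median of -1.68. No test was made of the difference between segments with and without the motif, and the letters are those of C57BL/6.

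The D segments were used differently too. Ighd4-1, also called DQ52, is the D segment nearest to JH, and Ighd1-1 (DFL16.1) is the functional one farthest from it. Their annotated mm9 sequence with the JH-side signal is shown with heptamer and nonamer in capitals, beside Ighd2-3, which did not pass the test, and Ighd3-1, which lies between Ighd1-1 and the VH region.
Ighd4-1 (mm9 chr12:114668711-114668749): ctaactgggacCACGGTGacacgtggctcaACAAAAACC
Ighd2-3 (mm9 chr12:114713583-114713627): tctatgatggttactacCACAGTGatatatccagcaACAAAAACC
Ighd1-1 (mm9 chr12:114720353-114720403): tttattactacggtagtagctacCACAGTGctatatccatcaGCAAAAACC
Ighd3-1 (mm9 chr12:114763496-114763540): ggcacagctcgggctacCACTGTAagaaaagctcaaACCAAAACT

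Against bone marrow, both ends of the D array held larger shares in the degron line, and the other D segments together a smaller one. Ighd4-1 held 15.0%, 17.7% and 19.7% of D junctions in the lowest, median and highest degron replicate and 4.74%, 5.75% and 6.52% in bone marrow. The means of 17.7% ± 2.06 and 5.71% ± 0.615 (SD, n = 6 each) differed 3.09-fold with no overlap (p = 0.00216 by exact permutation). Ighd1-1 held 33.1%, 36.9% and 49.6% against 20.8%, 22.7% and 24.8%, also with no overlap (means 39.5% ± 6.63 and 22.9% ± 1.44, SD, n = 6 each; p = 0.00216 by exact permutation). The other D segments together held 42.8% ± 5.34 and 71.4% ± 1.39 (SD, n = 6 each; p = 0.00216 by exact permutation).

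The untreated degron line did not lie between the groups for Ighd1-1 or for the other D segments together. There Ighd1-1 held 66.9% ± 7.54, Ighd4-1 8.58% ± 1.61 and the other D segments 24.6% ± 6.75 of D junctions (SD, n = 6). In the untreated parental line they held 65.6% ± 0.214, 6.10% ± 0.977 and 28.3% ± 0.815 (SD, n = 4). The share of the other D segments was thus lower without IAA than with it, a difference that was not tested.

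**Figure D5:**
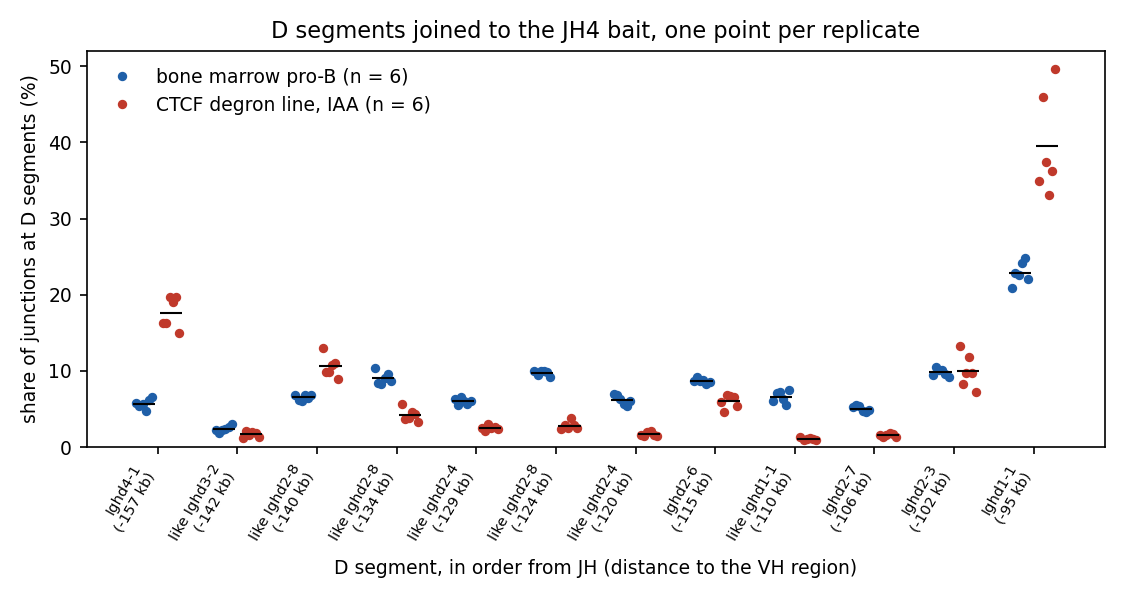
Share of junctions at D segments (%), with a point per replicate and a bar at the mean of 6, for the 12 D segments with at least 1% in either group, in order from JH (bone marrow blue, degron line with IAA red). Ighd4-1 at the left and Ighd1-1 at the right are higher in the degron line, and the Ighd2-type segments between them are mostly lower, except Ighd2-3 and the segment at -140 kb.

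Most Ighd2 segments of the middle held smaller shares of D junctions in the degron line than in bone marrow, to unequal degrees. D-114705399 fell from 9.76% ± 0.358 to 2.81% ± 0.517, D-114710077 from 6.20% ± 0.608 to 1.70% ± 0.290 and Ighd2-7 from 5.05% ± 0.366 to 1.59% ± 0.234 (SD, n = 6 each). D-114695747, D-114700407 and Ighd2-6 were 2.14-fold, 2.41-fold and 1.45-fold lower in share, while the log2 differences of D-114695747 and Ighd2-6 scaled by the median of ratios were above 0 (0.11 and 0.67). The largest ratio was at D-114719358, whose closest symbol is Ighd1-1 at 78.2% identity: 6.60% ± 0.774 in bone marrow and 1.06% ± 0.150 in the degron line (SD, n = 6 each). The replicate ranges of these 7 segments did not overlap. In the untreated degron line the mean share of each was lower still, for example 2.05% at D-114705399 and 0.588% at D-114719358 (means of 6 replicates, not tested).

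D-114690286 and Ighd2-3 differed from their relatives. D-114690286, the most JH-proximal Ighd2-type segment, rose from 6.56% ± 0.345 to 10.6% ± 1.38 (SD, n = 6 each; limma adjusted p = 1.17e-08). Ighd2-3, the Ighd2 segment nearest to Ighd1-1, held 10.0% ± 2.23 and 9.84% ± 0.508 (SD, n = 6 each), a log2 difference of 0.08 ± 0.111 (SE; limma adjusted p = 0.522). With identical junctions counted once, that log2 difference was 0.31 and passed (limma adjusted p = 0.00686).

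Of the 20 D segments tested relative to all junctions, 4 were higher and 11 lower with a median log2 difference of -0.41; with the median of ratios 11 were higher and 6 lower. Among the higher ones was the rare Ighd3-1, with the largest fitted log2 difference of any segment (4.51 ± 0.621, SE; 3.49 with a pseudocount of 2). By the ratio of mean shares it was 8.50-fold higher, less than the 9.19-fold of VH-114919648. It had 162 junctions in the degron line and 30 in bone marrow, or 0.126% ± 0.0246 and 0.0149% ± 0.0193 of D junctions (SD, n = 6 each), with no overlap (limma adjusted p = 4.03e-08). In bone marrow replicates 2, 3 and 4 Ighd3-1 had no junction, which allows up to 0.00833%, 0.00498% and 0.009997% of D junctions, so its fitted difference depends on the pseudocount.

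The bases inserted between JH4 and a VH segment also hold the D segment of a complete join. A run of at least 8 bases of an annotated D was found in 61.3% ± 1.78 of VH joins in the degron line and 59.3% ± 0.717 in bone marrow (SD, n = 6 each; p = 0.0346 by exact permutation). That difference was lost without any 1 of degron replicates 2 to 6 or bone marrow replicates 2, 3, 4 and 6, and reversed with runs of 6 bases (77.3% and 79.1%), so its direction depended on that length. Among VH joins with a named D, Ighd4-1 was present in 4.17%, 5.46% and 6.94% of the lowest, median and highest degron replicate and in 1.98%, 2.68% and 3.16% in bone marrow (p = 0.00216 by exact permutation, n = 6 each). The Ighd1 family, to which Ighd1-1 belongs, was present in 41.9% ± 5.20 and 31.2% ± 1.24 (SD, n = 6 each; p = 0.00216 by exact permutation). Inserted D segments were named to the family only. How many of these joins hold D-114719358, whose closest symbol is Ighd1-1, was not tested. Ighd4-1 is 11 bases long, so trimming removes it from this count more often than longer D segments.

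The excess of Ighd4-1 in complete joins was largest at D-proximal VH segments. In VH joins within 500 kb it made up 4.57% to 8.69% of named D segments in degron replicates and 1.49% to 2.94% in bone marrow. Between 500 and 1200 kb the ranges were 2.15% to 5.34% and 2.15% to 3.47%, between 1200 and 2000 kb 2.83% to 4.51% and 1.55% to 4.45%, and beyond 2000 kb 0.775% to 5.03% and 1.10% to 4.10%. The groups were thus apart within 500 kb and overlapped farther out; the difference between zones was not tested.

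Joins in the degron line had fewer inserted bases, counted from the end of the bait alignment to the start of the prey. The bait sequence differed between the groups, and whether that bears on these counts was not tested. The share of D joins with at least 1 inserted base was 78.0% ± 3.10 against 88.4% ± 0.542 (SD, n = 6 each; p = 0.00216 by exact permutation). It was lower for Ighd4-1 (76.5% against 86.2%), for Ighd1-1 (76.3% against 85.5%) and for the other D segments (80.2% against 89.6%). VH joins had an insertion in 99.1% ± 0.380 and 99.7% ± 0.118 (SD, n = 6 each; p = 0.00216 by exact permutation). In VH joins the median number of bases between bait and VH, D included, was 15.1 ± 0.665 against 17 in every bone marrow replicate (SD, n = 6; p = 0.00216 by exact permutation). The untreated lines had 73.9% ± 4.68 (degron, SD, n = 6) and 64.5% ± 13.4 (parental, SD, n = 4) of D joins with an insertion.

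Junctions outside the segments were rare. Those of the VH region farther than 100 bp from any VH segment were 0.584% ± 0.163 in the degron line and 0.506% ± 0.0625 in bone marrow (SD, n = 6 each; p = 0.340 by exact permutation). Junctions of the VH region in minus orientation were 0.758% ± 0.336 and 0.518% ± 0.107 (SD, n = 6 each; p = 0.132 by exact permutation). Neither passed with all replicates. The minus-orientation difference of 0.240 points was 0.127 without degron replicate 1 and 0.305 without degron replicate 4, where it passed (adjusted p by exact permutation 0.0480). It also passed with IAA-labelled replicates only (0.0234). The off-segment difference of 0.0785 points was 0.0165 without degron replicate 2 and below 0 with a libraries only or with identical junctions counted once, without passing. Minus-orientation junctions of the D region were fewer in the degron line, 0.229% ± 0.0476 against 0.412% ± 0.0956 (SD, n = 6 each; p = 0.00216 by exact permutation), a difference that missed the threshold with identical junctions counted once (Benjamini-Hochberg value 0.0506). Junctions outside chromosome 12 were more frequent in the degron line, 0.470%, 0.762% and 1.504% in the lowest, median and highest replicate against 0.0578%, 0.0869% and 0.176% in bone marrow (p = 0.00216 by exact permutation, n = 6 each). Without IAA the degron line had 0.315% ± 0.0817 there (SD, n = 6).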

How the data were processed

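The deposited files list 1 junction read per line, with no count column; per the labels the authors aligned reads to a hybrid of AJ851868 and mm9, and the submitters' processing notes name Bowtie2 (version not given in the sources used here). The values used are positions and orientations, so other measures were tallied here; a and b libraries, shifted by 3 bases either way, were put on the bone marrow positions. Peaks of junctions with a mean share of at least 0.002% gave 232 candidates. With blastn 2.17.0 (at least 100 aligned bases), 175 matched V or D segments annotated in mm9 (GENCODE vM1), 132 of them with over 95% identity; 90 carry a symbol of their own (RefSeq names), the rest their hybrid position. Junctions within 100 bp in plus orientation were assigned to a segment.

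Shares of a and b libraries were averaged per replicate and compared with two-sided exact permutation tests over 6 against 6 replicates, Benjamini-Hochberg over 32 tests. Tallies per segment (a and b summed) went through voom and eBayes of limma 3.58.1 under R 4.3.3 (pseudocount 0.5, minimum mean 10 junctions, threshold 0.05). On simulated data with 30 of 141 segments changed by a log2 of 2, 98.6% were recovered and 3.16% of calls were false (50 simulations). In the libraries 119 of 141 segments passed, 23 higher and 96 lower. The share of false calls when so many segments differ, mostly in a single direction, was not tested. Replicate numbers did not pair the groups (mean correlation of deviations 0.034). Named segments: Ighd4-1, Ighd1-1, other D segments with at least 5% of D junctions, Ighv5-2, the outermost VH used in every replicate, the 5 leading VH of each group, and the 6 largest increases and decreases without overlap. The comparison and lists were chosen with earlier results of these data known. Intervals and the share a count of 0 allows (3 junctions) cover counting error only.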

Additional observations from a re-analysis of the deposited data

Results flagged for a closer look

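In the degron line with IAA, replicate 1 lay far from the other 5 in several measures of how VH junctions spread. Its zone within 500 kb held 79.4% of VH junctions (nearest other replicate 64.1%), and its zone from 1200 to 2000 kb held 7.70% (20.4%). Its effective number of VH segments was 10.3 (13.6). Family Ighv5 held 54.2% there (44.03%), Ighv1 10.8% (19.8%), Ighv8 1.41% (3.59%), Ighv9 1.05% (1.78%) and Ighv15 0.189% (1.68%). Ighv5-6 held 17.0% (12.2%) and VH-116240676 4.01% (8.56%). VH joins with inserted bases were 98.4% (99.2%). This replicate also had the fewest junctions of its group, 21416; whether that bears on its values was not tested.

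Other replicates apart from their group were degron replicate 4 for Ighv5-4, with 5.11% (nearest other 6.499%), degron replicate 2 for VH-117638092, with 0.0747% (0.0320%), and bone marrow replicate 5 for Ighv5-6, with 3.06% (2.05%). In all 14 of 124 sets of 6 replicates held such a value; chance alone gives about 1 in 20.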

How the results depend on the processing

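Of 32 exact tests 26 passed. Without single replicates the differences (percentage points, degron minus bone marrow) ran from 23.97 to 27.8 for the zone within 500 kb, and calls changed for 3 measures. VH joins with a named D (1.53 to 2.56) lost the call without most replicates; Ighv14 (0.573 to 0.992) gained it without degron 1 or bone marrow 2, and minus-orientation VH junctions (0.127 to 0.305) without degron 4. VH joins with a named D also lost it with the replicate block (1.91), a libraries only (1.70), identical junctions once (1.21), bone marrow replicates 1 to 3 (1.77) or 4 to 6 (2.05) only and IAA-labelled replicates only (1.14), and reversed with a D run of 6 bases (-1.88). Ighv14 gained it with a libraries only (1.15), identical junctions once (1.44), bone marrow 4 to 6 (1.24) and, an alternative added after seeing the data, without the leading VH of the 1200 to 2000 kb zone (1.12). Minus-orientation D junctions lost it with identical junctions once (-0.166), the zone 1200 to 2000 kb with bone marrow 1 to 3 (-6.64) or 4 to 6 (-6.76) only, and VH joins with inserted bases with bone marrow 4 to 6 (-0.494). Minus-orientation VH junctions gained it with IAA-labelled replicates only (0.376). The replicate block changed no other call and gave 117 segments. Segment calls were 111 to 122 without single replicates (20 to 23 higher, 89 to 99 lower), 74 (56 lower) with a minimum mean of 50, where fewer were tested, and 40 higher and 57 lower with the median of ratios. That scale reversed D-114695747 (log2 0.11) and Ighd2-6 (0.67). Of 29 named segments 24 kept direction and call in every setting. The causes were not tested.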

Other observations

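Inverted D segments inside VH joins, found as runs of at least 8 bases of a D in reverse orientation, were counted in both groups. They were found in 9.28% ± 1.06 of VH joins in the degron line and 9.28% ± 0.819 in bone marrow (SD, n = 6 each), and the replicates ranged from 7.40% to 10.4% and from 8.40% to 10.5%. No test was made, and chance matches were not removed.

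The Ighd2 family made up 49.9% ± 5.31 of named D segments inside VH joins in the degron line and 62.5% ± 1.63 in bone marrow (SD, n = 6 each). Its highest degron replicate, 56.0%, was below its lowest bone marrow replicate, 60.5%.

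The a and b libraries of a degron replicate, which differ in bait sequence, were compared over 34 measures with an exact sign-flip test on 6 pairs. None had a Benjamini-Hochberg value under 0.05, and 5 had an unadjusted p under 0.05, each at the smallest p that 6 pairs allow, 0.03125. The VH share was higher in the a library of all 6 replicates, 29.1% ± 2.65 against 25.96% ± 2.98 (SD, n = 6 each).

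Of the 232 peaks, 57 matched no annotated segment and together held 0.670% of junctions.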
